A study of Mus musculus with 10 samples.

Results

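Cells make cholesterol and fatty acids from the same starting material, acetyl-CoA. The sterol arm runs from Hmgcs1 through the mevalonate steps to isoprenoids, squalene and finally cholesterol, and the fatty acid arm runs from Acly and Acaca to palmitate, which Elovl and Scd enzymes then lengthen and desaturate. Both arms are switched on by the SREBP transcription factors, which Scap escorts out of the endoplasmic reticulum when sterols are scarce and which the Insig proteins hold back when sterols are plentiful. In the lung, alveolar type 2 cells are a main site of lipid synthesis, since surfactant is largely phospholipid.

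The transcripts of 30 genes of these routes were examined, out of 54532 genes in the deposited table. They were chosen by name, with earlier results of these data known: 13 sterol enzymes, 5 regulators (Srebf1, Srebf2, Scap, Insig1 and Insig2) and 12 fatty acid enzymes. The samples were whole lungs of wild-type C57BL/6J mice at P30. In 5 mice with increased pulmonary flow (IPF) the aorta had been punctured through into the inferior vena cava at P7, making an aortocaval fistula, and 5 sham mice had the same operation without the puncture. Pups of both sexes were used according to the methods, and each library is numbered here as labelled (IPF 1 to 5, sham 1 to 5). Levels are FPKM, fragments scaled by gene length and by the size of the library, and fold changes are IPF minus sham differences of log2(FPKM + 0.1), a scale that understates changes of low genes.

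The libraries held 15483046 to 19026843 reads on genes, recovered from the FPKM values. The groups also differed in sex-linked transcripts. Xist read 26.8 to 43.2 FPKM in the IPF lungs and 0.03 to 0.08 in the sham lungs, while Ddx3y, Eif2s3y, Kdm5d and Uty had 0 reads in every IPF lung and were present in every sham lung, so surgery and sex cannot be told apart in any comparison below. Of 12 circadian clock genes 11 also passed the test, 3 higher and 8 lower, with IPF 5 between the groups for several of them (Nr1d2 at 17.3 FPKM, against 2.79 to 4.58 in the other IPF lungs and 43.1 to 47.1 in sham). For 3 clock genes every IPF lung lay above every sham lung, and for 8 every IPF lung lay below. The part of the clock difference in the lipid genes was not tested, and it cannot be told apart from surgery and sex. Sham 1 stood apart, with 25486 genes above 0 against 22475 to 23575 in the other 9 lungs, and with Sftpc, the type 2 surfactant protein, at 9437 FPKM against 13690 to 16510. In whole tissue, fewer cells of a type and less RNA per cell cannot be told apart.

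All 30 genes passed the filter on low values, and 7 of them differed between IPF and sham lungs in the fit over all genes (limma, adjusted p under 0.05): Hmgcs1, Mvd, Srebf1, Insig1, Acaca and Scd1 were higher and Elovl6 was lower. That is 23.3% of the 30, beside 5.85% of all 20448 genes tested. Since the 30 were chosen with earlier results of these data known, the shares are a description and no test of the list. For the 6 higher genes the share of all genes called in that direction was 3.71%, and for the 1 lower gene it was 2.14%. Low genes are part of these shares, while of the 30 only Fdps had a mean under 1 FPKM. With a filter at a mean of 1 FPKM, 8 of the 30 passed, beside 9.55% of 13445 genes. The changes were small, and their largest was Scd1 at 1.68-fold. Over the 30 genes 19 fold changes were positive and 11 negative, with a median of 0.12 on the log2 scale, beside 0.002 for all genes tested. In 5 genes every IPF lung lay above every sham lung, a pattern found in 4.52% of all genes, and in Elovl6 every IPF lung lay below, which 2.77% of all genes showed.

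**Figure D1:**
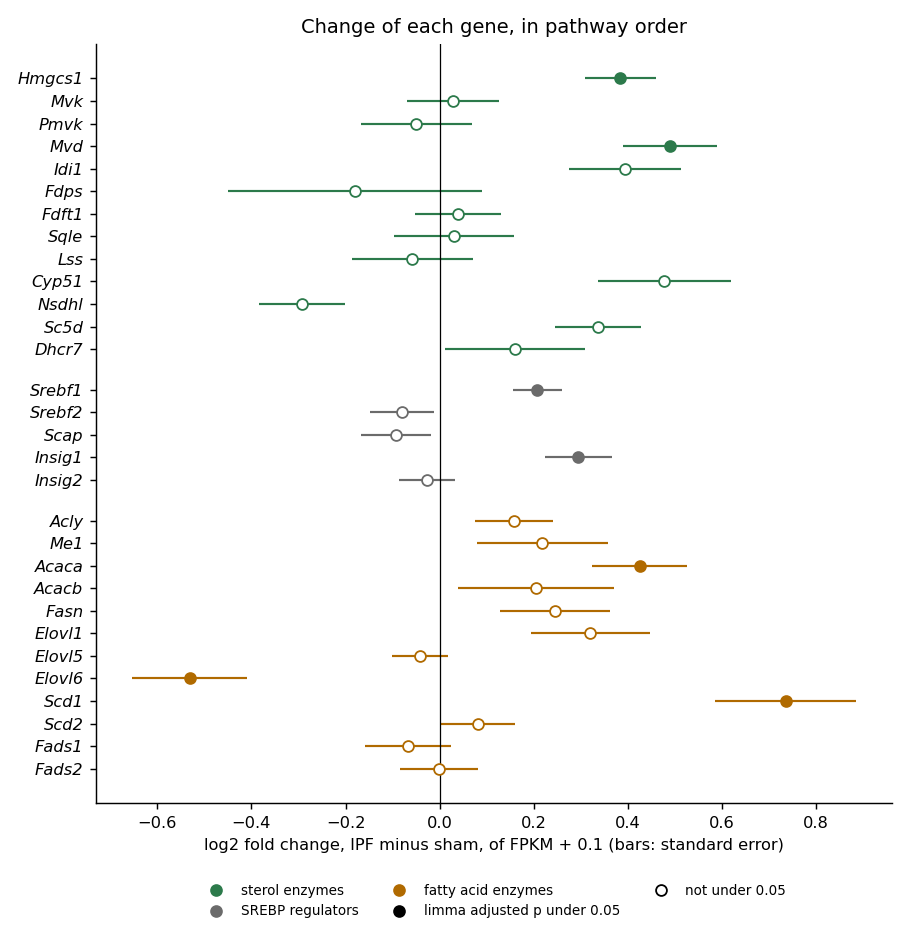
The log2 fold change of each of the 30 genes (x axis, IPF minus sham, on FPKM + 0.1) with its standard error, in pathway order from top to bottom, with filled points for an adjusted p under 0.05 in limma. Of the 30 points 7 are filled, Scd1 lies farthest to the right at 0.73 and Elovl6 farthest to the left at -0.53.

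Promoters of 3 of the genes that rose are shown first, so that the motifs searched can be seen in place. SREBP proteins bind sterol regulatory elements (SREs), and the factor NF-Y, which often works beside them, binds CCAAT boxes. Of the 3 stretches only that of Hmgcs1 holds the SRE letters. Each line gives bases upstream of the transcript in the direction of the gene, from RefSeq on GRCm38.p6, the build of the gene positions in the table. The Insig1 line stops at the annotated gene, whose start lies 49 bases before the RefSeq start. Capitals mark the SRE letters TCACNCCAC, the CCAAT box (CCAAT, or ATTGG where it lies on the other strand) and the E-box CACGTG. All 3 stretches lie outside the annotated gene, with Hmgcs1 at chr13:119690131-119690350 on the plus strand, Mvd at chr8:122443423-122443642 on the minus strand and Insig1 at chr5:28071192-28071362 on the plus strand.
Hmgcs1: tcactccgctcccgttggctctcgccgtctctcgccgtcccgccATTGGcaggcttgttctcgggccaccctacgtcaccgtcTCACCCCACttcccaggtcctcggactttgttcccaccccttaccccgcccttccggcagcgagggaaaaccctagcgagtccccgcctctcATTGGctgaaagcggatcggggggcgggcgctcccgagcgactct
Mvd: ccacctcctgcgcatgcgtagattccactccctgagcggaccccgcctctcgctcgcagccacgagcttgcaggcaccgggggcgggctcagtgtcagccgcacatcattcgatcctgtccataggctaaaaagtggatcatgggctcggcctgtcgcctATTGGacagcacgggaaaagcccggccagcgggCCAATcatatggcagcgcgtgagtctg
Insig1: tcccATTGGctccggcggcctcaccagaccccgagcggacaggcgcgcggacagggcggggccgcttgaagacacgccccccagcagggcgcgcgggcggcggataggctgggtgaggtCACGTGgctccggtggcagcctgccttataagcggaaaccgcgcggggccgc

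RefSeq windows of 300 bases (250 before and 50 after the start) were at hand for 24 of the 30 genes. On either strand, a CCAAT box was present in 20 of the 24, namely all 10 sterol enzymes with a window, 4 of 5 regulators and 6 of 9 fatty acid enzymes, beside 41.1% of the 27025 genes with a window. The exact SRE letters were found in Hmgcs1 alone, starting 137 bases before its start, beside 1.44% of all genes. An E-box was present in Dhcr7, Sc5d, Insig1, Scap and Elovl5, 5 of 24 beside 8.09% of all genes, and the D-box TTATGTAA in 0 of 24 beside 1.11%. Of the 7 genes that passed the test, Hmgcs1, Mvd, Srebf1 and Insig1 held a CCAAT box, Elovl6 and Acaca held none and Scd1 had no window; the Acaca window lies 65766 bases inside the gene as the table gives it. A match to a few letters describes the window and is no evidence of binding.

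In the sterol arm 2 of 13 enzymes (15.4%, beside 5.85% of all genes) passed the test, both of them higher in IPF, and the fold changes had a median of 0.04. With a filter at a mean of 1 FPKM 3 passed, beside 9.55% of all genes. Hmgcs1, on chromosome 13 at 119690379 to 119708260, makes HMG-CoA, the first committed intermediate of the route. Its level was 23.2, 22.4, 25.9, 27.0 and 22.7 FPKM in IPF 1 to 5 and 16.4, 19.3, 18.0, 20.4 and 18.7 FPKM in sham 1 to 5. The groups did not overlap, with IPF 4 highest and sham 1 lowest. Hmgcs1 was 0.38 ± 0.07 higher on the log2 scale (SE, n = 5 per group; limma adjusted p = 0.0126), and the exact two-sided permutation p of 0.00794 is the smallest that 5 against 5 allows.

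Mvd, on chromosome 8 at 122433601 to 122443422, removes the carboxyl group that turns the mevalonate product into isopentenyl pyrophosphate. It read 6.95, 8.29, 9.05, 9.65 and 8.63 FPKM in IPF 1 to 5 and 5.35, 6.06, 6.03, 7.11 and 5.61 FPKM in sham 1 to 5. IPF 1 fell just under sham 4, and the other 4 IPF lungs lay above every sham lung. This was a rise of 0.49 ± 0.10 on the log2 scale (SE, n = 5 per group; limma adjusted p = 0.0155, exact permutation p = 0.0159). A protein-coding gene model on the opposite strand, Gm20388, covers the whole of Mvd and was listed at 0 FPKM in the mean.

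Between and after these 2 steps the arm was uneven. Cyp51, the lanosterol demethylase, had a log2 fold change of 0.48 ± 0.14 (SE), between those of Mvd and Hmgcs1, without passing the test (limma adjusted p = 0.0772). Its values were 7.76, 10.2, 9.46, 12.0 and 7.64 FPKM in IPF 1 to 5 and 5.59, 7.75, 6.60, 7.85 and 5.75 FPKM in sham 1 to 5. IPF 2, 3 and 4 lay above every sham lung, while IPF 1 and 5 lay within the sham range. Idi1, which isomerises isopentenyl pyrophosphate, stood at 0.39 (limma adjusted p = 0.0835) and Sc5d, a late desaturase of the sterol ring, at 0.34 (limma adjusted p = 0.0559), each with 4 of 5 IPF lungs above every sham lung.

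Other sterol enzymes lay near 0. Mvk and Pmvk, the kinases between Hmgcs1 and Mvd, had log2 fold changes of 0.03 ± 0.10 and -0.05 ± 0.12 (SE). Squalene synthase Fdft1 stood at 0.04 ± 0.09, squalene epoxidase Sqle at 0.03 ± 0.13 and the cyclase Lss at -0.06 ± 0.13 (SE). Fdft1 shares 774 bases with Ctsb on the other strand, a gene at 81.2 FPKM, and no strand setting is stated for the counting, so reads of this pair may be mixed. Dhcr7, the last reductase of the route, stood at 0.16 ± 0.15 (SE), and at 0.09 without IPF 3 and 0.29 without IPF 5. Nsdhl, an X-linked sterol dehydrogenase, was the sterol enzyme with the lowest fold change, -0.29 ± 0.09 (SE; limma adjusted p = 0.094), with 4 of 5 IPF lungs under every sham lung. Fdps, which builds farnesyl pyrophosphate, was the lowest of the 30 at 0.337 FPKM, on 10 to 42 reads per lung. It shares 7512 bases on its own strand with Gm43738, listed at 0, so its level and its log2 fold change of -0.18 ± 0.27 (SE) are uncertain.

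Of the 5 regulators, Insig1 and Srebf1 were higher in IPF lungs and the other 3 did not pass the test. Insig1, on chromosome 5 at 28071363 to 28078662, is both a brake on SREBP processing and one of its target genes. Its level was 21.8, 25.1, 25.1, 25.3 and 23.2 FPKM in IPF 1 to 5 and 18.1, 21.8, 21.4, 18.3 and 18.8 FPKM in sham 1 to 5. The groups touched without overlapping, IPF 1 and sham 2 being almost equal (21.79 and 21.78 FPKM). Insig1 rose by 0.29 ± 0.07 on the log2 scale (SE, n = 5 per group; limma adjusted p = 0.0345, exact permutation p = 0.00794), and the call was lost in 6 of 10 fits with 1 lung left out and in 3 of 10 other fits.

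Srebf1, on chromosome 11 at 60199089 to 60222581, encodes SREBP-1, the member of the family that mainly drives fatty acid synthesis. It read 25.0, 23.0, 25.5, 25.8 and 23.8 FPKM in IPF 1 to 5 and 20.1, 22.1, 22.2, 21.6 and 20.6 FPKM in sham 1 to 5. The lowest IPF lung (22.98 FPKM) lay just above the highest sham lung (22.21 FPKM). Its log2 fold change of 0.21 ± 0.05 (SE, n = 5 per group; limma adjusted p = 0.0414, exact permutation p = 0.00794) was the smallest among the 7, and the call was lost in 8 of 10 fits with 1 lung left out and in 6 of 10 other fits. Gene-level values do not separate the SREBP-1a and SREBP-1c transcripts.

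Among the other regulators, Srebf2, whose product mainly drives sterol synthesis, had a log2 fold change of -0.08 ± 0.07 (SE), Scap -0.09 ± 0.07 (SE) and Insig2 -0.03 ± 0.06 (SE), with limma adjusted p of 0.573, 0.546 and 0.854. The ratio of Srebf1 to Srebf2 FPKM was 0.959 ± 0.0626 in IPF and 0.785 ± 0.0405 in sham lungs (SD, n = 5 each), ranging from 0.876 to 1.03 and from 0.733 to 0.840. The ratio of Insig1 to Insig2 was 1.52 ± 0.111 and 1.22 ± 0.109 (SD, n = 5 each), with overlapping ranges of 1.36 to 1.67 and 1.10 to 1.38. These ratios were formed from values already tested and were not tested again.

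**Figure D2:**
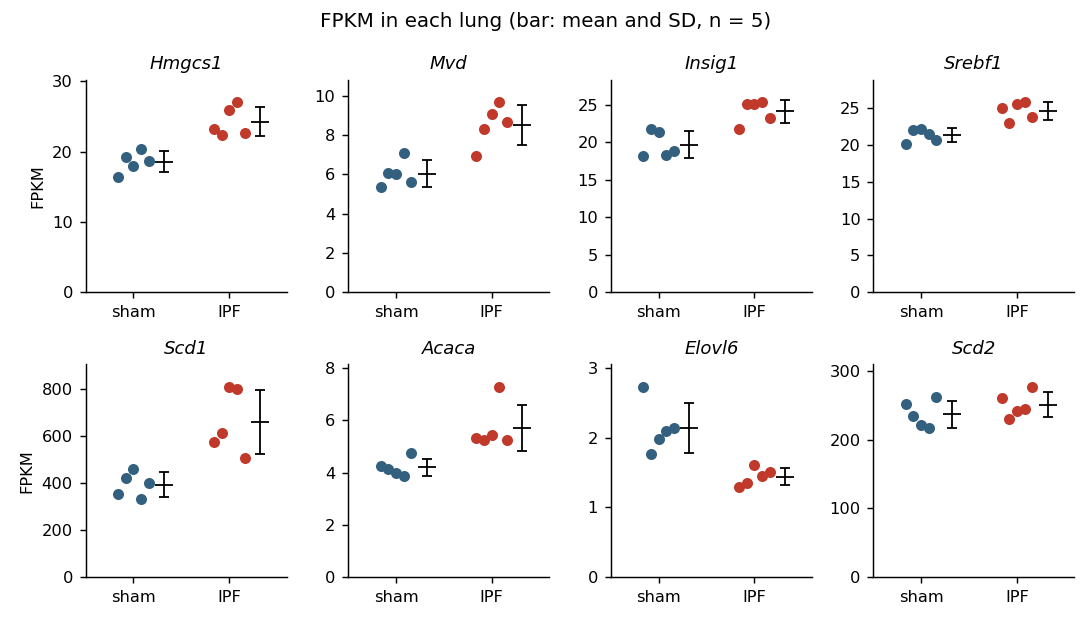
FPKM (y axis, from 0) of the 7 genes that passed the test, with Scd2, a relative of Scd1, beside them, in each sham and IPF lung (points in the order of replicate number), and the mean and SD of 5 lungs (bars). Only Mvd among the 7 has an IPF lung inside the sham range, and Scd2 overlaps widely, with means of 237 and 251 FPKM.

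The fatty acid arm held the most abundant members and the largest change. Of 12 enzymes 3 (25.0%, beside 5.85% of all genes) passed the test, Scd1 and Acaca higher and Elovl6 lower, and the fold changes had a median of 0.18. With a filter at a mean of 1 FPKM the count was also 3, beside 9.55% of all genes. Scd1, on chromosome 19 at 44394451 to 44407709, puts the first double bond into palmitate and stearate. At a mean of 526 FPKM it ranked 1 among the 30 and 36 among all genes. It read 574, 613, 808, 798 and 508 FPKM in IPF 1 to 5 and 351, 423, 459, 330 and 400 FPKM in sham 1 to 5. The groups did not overlap, and IPF 3 and IPF 4 stood well above the other IPF lungs. Scd1 rose by 0.73 ± 0.15 on the log2 scale (SE, n = 5 per group; limma adjusted p = 0.016, exact permutation p = 0.00794).

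Scd2, a desaturase of the same gene cluster on chromosome 19, differed little, at 251 ± 18.2 FPKM in IPF and 237 ± 19.8 FPKM in sham lungs (SD, n = 5 each; log2 fold change 0.08 ± 0.08 SE, limma adjusted p = 0.631). The ratio of Scd1 to Scd2 was 2.66 ± 0.657 in IPF and 1.67 ± 0.275 in sham lungs (SD, n = 5 each), and its ranges of 1.84 to 3.35 and 1.40 to 2.08 overlapped through IPF 5.

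Acaca, on chromosome 11 at 84129672 to 84401651, encodes acetyl-CoA carboxylase 1, the enzyme that commits acetyl-CoA to fatty acid synthesis. Its level was 5.32, 5.23, 5.45, 7.28 and 5.25 FPKM in IPF 1 to 5 and 4.25, 4.15, 3.98, 3.86 and 4.75 FPKM in sham 1 to 5. The groups did not overlap, 4 IPF lungs lay close together, and IPF 4 stood far above them. On the log2 scale Acaca rose by 0.42 ± 0.10 (SE, n = 5 per group; limma adjusted p = 0.0317, exact permutation p = 0.00794). Acaca lost the call in 6 of 10 fits with 1 lung left out, when blocked by replicate number (limma adjusted p = 0.0831) and with no variance trend (0.053). Acacb, the mitochondrial carboxylase that restrains fat burning, overlapped between groups (0.20 ± 0.17 SE, limma adjusted p = 0.549). With 1 lung left out its log2 fold change ranged from 0.126 to 0.304, and without both IPF 3 and IPF 4 it was 0.063.

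Elovl6, on chromosome 3 at 129532355 to 129638495, lengthens palmitate to stearate and was the only one of the 11 genes with a negative fold change that passed the test. It read 1.297, 1.343, 1.604, 1.451 and 1.503 FPKM in IPF 1 to 5 and 2.726, 1.760, 1.976, 2.101 and 2.141 FPKM in sham 1 to 5. Every IPF lung lay under every sham lung, and sham 1 was the highest. On the log2 scale Elovl6 fell by 0.53 ± 0.12 (SE, n = 5 per group; limma adjusted p = 0.027, exact permutation p = 0.00794), to 0.672 of the sham mean. Elovl6 lost the call in 6 of 10 fits with 1 lung left out (limma adjusted p 0.0503 to 0.0696) and with the replicate number as a block (0.0721), and kept it without sham 1 (-0.44, 0.0448). These low levels rested on 142 to 289 reads per lung.

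The other elongases and the desaturases of polyunsaturated fatty acids did not pass. Elovl1, which makes very long saturated chains, stood at 0.32 ± 0.13 (SE, limma adjusted p = 0.181), with IPF 5 at 65.2 FPKM, lower than every sham lung, and the other 4 IPF lungs at 88.5 to 106 FPKM, above every sham lung (65.8 to 78.7 FPKM). Elovl5 stood at -0.04 ± 0.06, Fads1 at -0.07 ± 0.09 and Fads2 at 0.00 ± 0.08 (SE). Fatty acid synthase Fasn stood at 0.24 ± 0.12 (SE, limma adjusted p = 0.276), where IPF 4 read 67.1 FPKM and the other 9 lungs 39.7 to 52.7, and came to 0.14 without IPF 4. Acly, which supplies cytosolic acetyl-CoA, and Me1, which supplies NADPH, had log2 fold changes of 0.16 ± 0.08 and 0.22 ± 0.14 (SE, limma adjusted p = 0.329 and 0.43), which came to 0.08 for Acly without IPF 4 and 0.10 for Me1 without IPF 3.

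**Figure D3:**
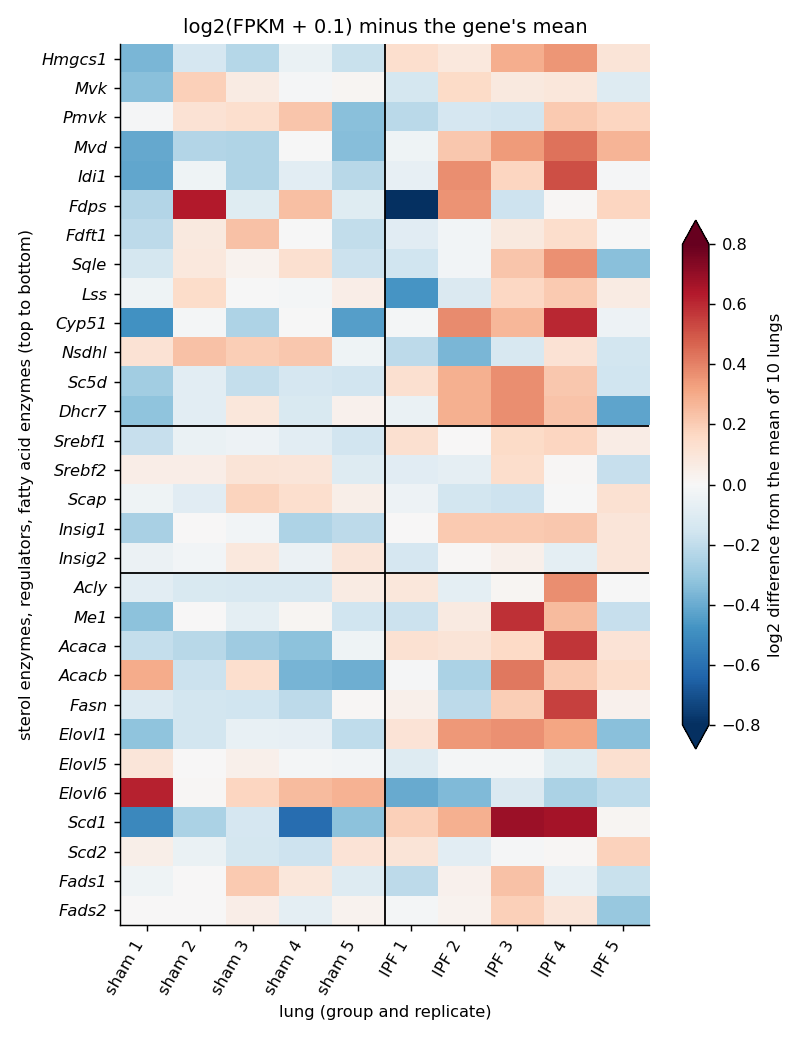
Each gene's log2(FPKM + 0.1) minus its mean over the 10 lungs (colour), with sham lungs in the left 5 columns and IPF lungs in the right 5, and sterol enzymes, regulators and fatty acid enzymes from top to bottom. In the Scd1 row IPF 3 and IPF 4 are the reddest cells, and in the sterol rows IPF 1 and IPF 5 hold both blue and red cells.

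Sterol arm and fatty acid arm were then set side by side over the lungs. The difference between the arms' median fold changes was -0.14 (sterol minus fatty acid) on the log2 scale. With 1 lung left out it ranged from -0.162 (without IPF 2) to -0.07 (without IPF 5). It came to -0.08 without sham 4, without sham 3 or with a filter at a mean of 1 FPKM. Without IPF 3, without sham 2 or without both IPF 3 and IPF 4 it came to -0.09. As a mean over its enzymes after centring each gene, the sterol arm was 0.135 higher in IPF than in sham lungs and the fatty acid arm 0.145 higher, so by means the arms differed by 0.01. The sterol arm stood at -0.16, 0.11, 0.15, 0.27 and -0.03 in IPF 1 to 5 and at -0.24, 0.07, -0.04, 0.03 and -0.16 in sham 1 to 5. IPF 1 and IPF 5 lay inside the sham range, and sham 1 was lowest. The fatty acid arm stood at -0.02, -0.01, 0.23, 0.22 and -0.05 in IPF 1 to 5 and at -0.04, -0.09, -0.03, -0.13 and -0.06 in sham 1 to 5. IPF 3 and IPF 4 stood well above the other 8 lungs, IPF 1 and IPF 2 lay just above the highest sham lung, and IPF 5 lay within the sham range.

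**Figure D4:**
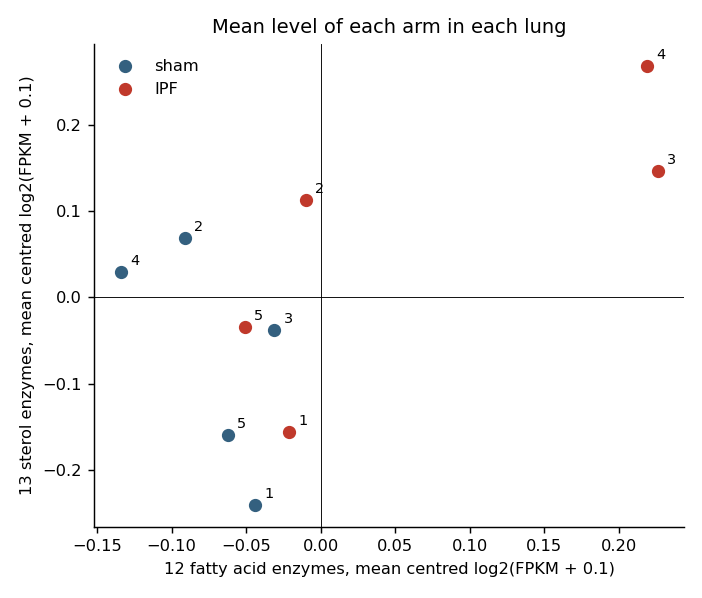
Mean centred log2(FPKM + 0.1) of the 12 fatty acid enzymes (x axis) and of the 13 sterol enzymes (y axis) in each lung, numbered by replicate and coloured by group. IPF 3 and IPF 4 lie at the upper right, near 0.22 on the x axis, and the other 8 lungs lie at -0.01 or lower on that axis.

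IPF 4 was the highest IPF lung in 9 of 13 sterol enzymes and IPF 3 in 7 of 12 fatty acid enzymes, while IPF 1 was the lowest IPF lung in 7 of 13 sterol enzymes and sham 1 the lowest sham lung in 10 of 13. These 2 lungs also held the highest values of some fat-cell transcripts: the adipocyte gene Cfd read 7.29 FPKM in IPF 3 and at most 0.54 in the other 9 lungs, Adipoq 0.881 in IPF 3 and at most 0.16 elsewhere, and the brown fat gene Ucp1 2.21 in IPF 4 and at most 0.24 elsewhere. Fabp4 read 2.57 and 2.70 FPKM in IPF 3 and IPF 4 and at most 1.44 elsewhere. In all, 7 of 10 adipocyte and 3 of 5 brown adipocyte markers were highest in one of these lungs, several of them at very low levels. The mean centred log2 level of the 10 adipocyte markers was 1.05 in IPF 3, 0.38 in IPF 4 and at most 0.19 in the other 8 lungs. The 3 other markers peaked elsewhere. Plin4 was at 0.879 FPKM in IPF 3 and 0.646 in IPF 4, above the 0.457 to 0.577 of the other IPF lungs. For this gene IPF 3 lay at the low end of the sham range (0.874 to 1.85 FPKM) and IPF 4 below it. Cidec was at 4.62 and 6.15 FPKM in IPF 3 and IPF 4 against 4.37 to 7.60 in sham lungs. Adig read 0.457 and 0.0677 FPKM in IPF 3 and IPF 4 against 0.148 to 0.826 in sham lungs. Alveolar type 2 markers were also highest in these lungs in 5 of 10 cases, with a mean centred log2 level of 0.12 in IPF 3 and 0.14 in IPF 4 against -0.17 to 0.06 in the other 8 lungs. IPF 3 stood apart for ciliated airway genes too, with a mean centred log2 level of 1.16 over 8 markers against -0.70 to 0.50 in the other 9 lungs. The summed level of 10 adipocyte markers ranged from 5.89 to 17.2 FPKM in IPF and from 6.87 to 9.91 FPKM in sham lungs, and that of 5 brown adipocyte markers from 1.04 to 3.19 and from 0.808 to 1.25 FPKM. None of the 6 adipocyte or 4 brown adipocyte markers with enough signal passed the test in limma, 1 in each list had an unadjusted p under 0.05 (Plin4, with a log2 fold change of -0.87, and Dio2, with 0.67), and voom on the recovered reads called 1 and 0. Lep was at 0 in 8 lungs. With IPF 3 and IPF 4 both left out, a choice made after seeing the data that leaves 3 IPF lungs, 12 of the 30 genes had an unadjusted p under 0.05 in limma. The count was also 12 in the full set, beside 3989 of all 20448 genes tested. With both lungs left out limma called 0 of the 30 genes at the adjusted limit, while 2.66% of all genes were called. Scd1 then stood at 0.53 (adjusted p = 0.076), Hmgcs1 at 0.30 (0.0796), Mvd at 0.40 (0.1), Acaca at 0.32 (0.0883) Elovl6 at -0.59 (0.0733), Insig1 at 0.25 (0.182) and Srebf1 at 0.17 (0.216) on the log2 scale in limma. Fasn stood at 0.08 and Me1 at 0.01, and the sterol and fatty acid medians at -0.02 and 0.07. The part of the smaller number of lungs in these lost calls was not tested.

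With single lungs left out, the calls of the 7 genes held to unlike degrees, with several adjusted p close to the limit on either side. Log2 fold changes ranged from 0.34 to 0.419 for Hmgcs1, 0.442 to 0.559 for Mvd and 0.656 to 0.823 for Scd1. They ranged from 0.186 to 0.231 for Srebf1, 0.265 to 0.331 for Insig1, 0.336 to 0.47 for Acaca and -0.595 to -0.444 for Elovl6. Hmgcs1, Mvd and Scd1 passed the test whichever lung was left out, with adjusted p of at most 0.0369, 0.0442 and 0.0434 in limma. Srebf1 lost the call in 8 of 10 such fits (all but those without IPF 2 or IPF 5; adjusted p 0.0629 to 0.109). Insig1 lost it without IPF 2, 3 or 4 or sham 1, 4 or 5 (0.0669 to 0.0899), Acaca without IPF 1 or 2 or sham 1, 2, 3 or 4 (0.0505 to 0.0778), and Elovl6 without IPF 1, 2 or 4 or sham 3, 4 or 5. IPF 5 was the lung between the groups for several clock genes and had the highest summed level of the neutrophil markers. Without it 10 of the 30 passed, and the share of all genes called was 7.88%. Added to the 7 were Cyp51 (0.55, limma adjusted p = 0.0436), Sc5d (0.42, 0.0033) and Elovl1 (0.44, 0.00589). Without sham 1, 4 passed beside 4.95% of all genes, which were Hmgcs1, Mvd, Scd1 and Elovl6.

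Cell types that make or handle lipid were checked for a shift. Of 10 alveolar type 2 markers 1 passed the test, a share of 10.0% beside 5.85% of all genes: Lpcat1, a surfactant phospholipid enzyme (0.33, limma adjusted p = 0.0163). With Abca3 (0.32, limma adjusted p = 0.0996), 2 had an unadjusted p under 0.05, and voom called 2. Sftpb lay lower in every IPF lung than in every sham lung (-0.24, limma adjusted p = 0.305). The summed level, most of it Sftpc, was 17260 to 19510 FPKM in IPF and 13150 to 20720 FPKM in sham lungs. Of 10 alveolar macrophage markers 0 passed in limma, with 1 at an unadjusted p under 0.05 and 0 called by voom, and their summed level was 383 to 598 FPKM in IPF and 350 to 534 FPKM in sham lungs. Of 8 neutrophil markers 0 passed in limma, although 5 had an unadjusted p under 0.05 (0 called by voom). At that unadjusted limit stood 3989 of all 20448 genes tested. All 8 had positive fold changes, with a median of 0.93, and for Csf3r every IPF lung lay above every sham lung. Their summed level was 54.3 to 303 FPKM in IPF lungs, highest in IPF 5, and 16.4 to 78.2 FPKM in sham lungs. The 8 type 1 and the 8 ciliated airway markers also gave 0 calls in limma, with 2 and 1 at an unadjusted p under 0.05 and 1 each by voom. All 8 ciliated markers had negative fold changes, with a median of -0.35, although IPF 3 was high for most of them. The part of cell composition in the changes of the 30 genes was not tested.

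Neighbouring lipid genes were taken from 3 further lists. Of 9 other sterol enzymes 0 passed in limma (2 at an unadjusted p under 0.05, 0 by voom), and Msmo1, a methyl oxidase of the later sterol steps, had the largest change at 0.27 ± 0.12 (SE, adjusted p = 0.239). Of 13 testable genes of sterol uptake, export and sensing 1 passed, a share of 7.69% close to the 5.85% of all genes. This was Soat1, which stores cholesterol as esters. It read 16.5, 17.1, 16.3, 16.2 and 12.6 FPKM in IPF 1 to 5 and 10.4, 11.1, 10.3, 11.5 and 10.2 FPKM in sham 1 to 5. Every IPF lung lay above every sham lung, with IPF 5 nearest to them (0.54 ± 0.08 SE, limma adjusted p = 0.00366).

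Of 20 testable genes of other fatty acid and glycerolipid steps 2 passed (3 by voom), beside the 5.85% of all genes, both lower in IPF and both in the making of triglyceride. Dgat2, which adds the last fatty acid, read 2.76, 2.04, 1.49, 2.40 and 4.03 FPKM in IPF 1 to 5 and 8.21, 7.45, 6.81, 7.38 and 6.29 FPKM in sham 1 to 5. The groups lay far apart, and IPF 5 was again nearest to sham; Dgat2 fell by 1.54 ± 0.21 on the log2 scale (SE, n = 5 per group; limma adjusted p = 0.00211). Lpin1, the phosphatase of the preceding step, read 3.659, 3.501, 3.431, 4.139 and 6.065 FPKM in IPF 1 to 5 and 11.2, 6.81, 10.1, 6.57 and 8.44 FPKM in sham 1 to 5. It fell by 1.04 ± 0.19 on the log2 scale (SE, n = 5 per group; limma adjusted p = 0.00825), more than any of the 30 synthesis genes. In the same list Dgat1 went the other way without passing (0.13, limma adjusted p = 0.48), with 4 of 5 IPF lungs above every sham lung. Gpam (-0.39, limma adjusted p = 0.0684) and Agpat2 (-0.21, 0.0981) were lower, also without passing. With IPF 3 and IPF 4 left out, Soat1 and Dgat2 still passed (limma adjusted p = 0.0393 and 0.0109) and Lpin1 did not (0.059).

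**Figure D5:**
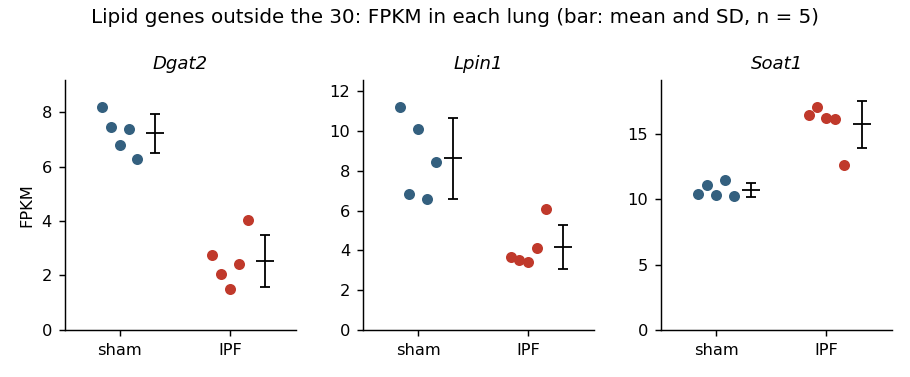
FPKM (y axis, from 0) of Dgat2, Lpin1 and Soat1 in each sham and IPF lung (points in the order of replicate number), with the mean and SD of 5 lungs (bars). The groups do not overlap in any of the 3 genes, and the last IPF point (IPF 5) is the one nearest to the sham lungs.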

How the data were processed

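Whole-lung mRNA of 5 IPF and 5 sham mice was analysed. According to the methods, trimming (Fastp), alignment (HISAT2) and quantification (StringTie) were done by the authors, who deposited FPKM as 1 value for each gene in each lung. Gene positions are those of GRCm38, while the methods name GRCm39 (the submitters' processing notes list GRCm38, mm10 and hg38, and Bowtie 0.12.2 as a tool). FPKM times length was a whole multiple of 1 read within a tolerance of 0.1 for 100% of values under 200 reads, which gave the depth of 15483046 to 19026843 reads and reads for voom. SDs cover the spread between these lungs. SEs of fold changes come from limma, which draws each gene's variance towards a trend over all genes.

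A mean of 0.1 FPKM or more was required, and these genes were tested with limma 3.58.1 (R 4.3.3, variance trend, no covariate) on log2(FPKM + 0.1), and p-values were adjusted over all of them (Benjamini-Hochberg, limit 0.05). Exact two-sided permutation tests ran over all assignments of 5 of 10 lungs. Tables and motif searches used Python 3.11.15, pandas 2.3.3 and numpy 2.4.6. On simulated counts with a dispersion of 0.03, IPF against sham with 20462 genes tested, 78.6% of 2-fold and 12.4% of 1.5-fold changes were called, with 6 false calls. The simulation used this dispersion only, while the real spread differed between genes. Among sham lungs the SD was 4.35% of the mean for Srebf1 and 33.4% for Fdps. In the data Srebf1 passed at 1.15-fold, while Cyp51 at 1.40-fold did not. The simulated shares therefore do not give the chance of a call for any particular gene.

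The members, gene lists and marker lists were chosen with earlier results of these data known. Values in every lung are given for each member that passed the test and for the 2 with the largest absolute fold change in each of the 3 groups. In the further lipid lists, genes that passed are named, or the one with the largest change if none did. Dgat1, Gpam and Agpat2 are named in addition. Alternatives were voom, array weights, a constant variance prior (no trend), blocking on the replicate number, quantile normalization, median-of-ratios scaling, pseudocounts of 0.01 and 1, a filter at a mean of 1 FPKM or none, and dropping each lung in turn. Leaving out IPF 3 and IPF 4 together was added after seeing the data. IPF and sham lungs share replicate numbers, but correlations of deviations between same-numbered lungs were -0.02 to 0.095, so the numbers were not treated as pairs.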

Additional observations from a re-analysis of the deposited data

Results flagged for a closer look

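Among 60 sets of 5 lungs (30 genes in each group), 3 held a lung far from the other 4, and chance marks about 1 in 20 such sets. Acaca read 7.28 FPKM in IPF 4, 0.879 of the group's range away from the next lung. Srebf2 read 24.5 FPKM in sham 5, the lowest sham value, with a gap of 0.77 of the range. Acly read 44.2 FPKM in sham 5, the highest sham value, with a gap of 0.787 of the range. No explanation of these values was tested.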

How the results depend on the processing

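Hmgcs1, Mvd and Scd1 passed the test under all 10 other ways of fitting the data and with any single lung left out, and missed it only with IPF 3 and IPF 4 both left out. Between 4 and 8 of the 30 genes passed under these fits, beside 2.89% to 9.55% of all genes, and between 3 and 10 with 1 lung left out, beside 3.78% to 7.88%. Srebf1 missed the limit in 6 of them, Insig1 in 3 (no filter, quantile normalization, no trend), Acaca in 2 (replicate block, no trend) and Elovl6 in 1 (replicate block). The regulators that passed numbered 0 with no filter, quantile normalization or no trend, and 1 with median-of-ratios scaling, the replicate block or voom. With the replicate block 4 sterol and 1 fatty acid enzymes passed, and 4 of the 7 genes kept the call, but the numbers do not pair the lungs. With single lungs left out, the called genes of all tested numbered 775 to 1620 (775 without IPF 4), sterol enzymes 2 to 4, fatty acid enzymes 1 to 4 and regulators 0 to 2. With IPF 3 and IPF 4 left out, 545 of all genes and 0 sterol enzymes, 0 fatty acid enzymes and 0 regulators passed in limma, and the fatty acid median was 0.07. With 1 lung left out the sterol median ranged from -0.002 (without sham 1) to 0.117 (without IPF 5) and the fatty acid median from 0.112 to 0.212. Genes near 0 changed sign: Mvk, Fdft1 and Fads2 with array weights (-0.024, -0.007 and 0.026), and Mvk, Fdft1 and Sqle without IPF 3 and IPF 4 (-0.017, -0.02 and -0.157). Their log2 fold changes with 1 lung left out ranged from -0.051 to 0.079 for Mvk, -0.14 to 0 for Pmvk, -0.292 to 0.003 for Fdps, -0.008 to 0.103 for Fdft1, -0.059 to 0.117 for Sqle, -0.118 to 0.053 for Lss, -0.054 to 0.004 for Insig2 and -0.05 to 0.075 for Fads2. Some genes that did not pass kept their sign but moved, from -0.124 to -0.044 for Srebf2, -0.135 to -0.06 for Scap and 0.126 to 0.304 for Acacb. Likewise Scd2 ranged from 0.045 to 0.118, Elovl5 from -0.078 to -0.021 and Fads1 from -0.136 to -0.024. Fdps was not tested at a mean FPKM of at least 1. The causes of these shifts were not tested.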
